A study of Homo sapiens with 38 samples.

Results

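The MHC class I antigen presentation genes described here are 9 genes, HLA-B, HLA-C, B2M, TAP1, TAP2, TAPBP, PSMB8, PSMB9 and NLRC5. They were taken by symbol, not by their values, because EZH2, the histone methyltransferase that the study targets, is a known repressor of this pathway in tumour cells. The deposited tables list 24463 genes in at least 1 table and 11981 in every table, and all 9 genes are among the latter. Polyadenylated RNA was sequenced from BT-549, T47D and T47D-TR cells, 3 established lines of human breast cancer (the labels do not spell out TR). For 48 h each line received 2.5 uM MS177 (a proteolysis-targeting chimera, or PROTAC, directed at EZH2), MS177-N1 or MS177-N2 (its negative control compounds), 2.5 uM C24 (an inhibitor of the EZH2 methyltransferase), or 0.125% DMSO as vehicle. T47D-TR cells were also treated for 30 h with MS8815 (a second EZH2 PROTAC) at 2.5 uM, MS8815-N (its negative control compound), EPZ-6438 (an EZH2 methyltransferase inhibitor), or 0.05% DMSO. All cells were grown in RPMI1640 with fetal bovine serum and insulin. Each of the 19 groups has 2 samples in the labels, 38 samples in all, and 15 tables each set 1 compound against its DMSO libraries. Whether the 2 samples of a group came from separate cultures is not stated, so the p-values below measure the spread between these samples, which may be technical.

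MHC class I molecules carry short peptides from inside the cell to its surface, where CD8+ T cells read them. HLA-B and HLA-C are polymorphic heavy chains and B2M is the light chain that every heavy chain needs. PSMB8 and PSMB9 are catalytic subunits of the immunoproteasome, which cuts proteins into peptides, TAP1 and TAP2 form the pump that moves peptides into the endoplasmic reticulum, and TAPBP (tapasin) holds an empty heavy chain at that pump until a peptide fits. NLRC5 is the transactivator that acts with the RFX complex at class I promoters, and interferon raises the pathway, in part through the factor IRF1. A PROTAC removes the protein and not the transcript of its target, so the EZH2 transcript does not check the degradation. EZH2 stood at 239.3 and 254.5 normalized counts in DMSO and at 372.8 and 345.1 with MS177 in T47D-TR (limma adjusted p = 0.0213).

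Several libraries stood apart before any gene was compared. The second treated column of the T47D table for MS177-N1 holds the same reads as MS177-N2 replicate 2 in all 17724 shared genes, so MS177-N1 has 1 library in T47D and the tables hold 37 libraries. In T47D-TR, MS8815-N replicate 2 is listed at 0 for 44.3% of its table's genes, with TAP2, NLRC5, PSMB10 and IRF1 among them. MS8815 replicate 1 is at 0 for 4.9% and EPZ-6438 replicate 2 for 3.1% of listed genes. The 2 MS177 libraries of T47D correlated across genes at r = 0.913, against 0.987 for the DMSO pair of the same table. Library depth was 32.1 to 49.9 M reads in T47D and BT-549 and is unknown in T47D-TR. Marker genes set BT-549 apart from the other lines: the 6 luminal epithelial markers summed to 687 to 720 CPM (counts scaled to the same total in every library) in BT-549 DMSO libraries, where ESR1 and EPCAM are not listed, against 9930 to 10500 in T47D and 14100 to 15600 in T47D-TR. The mesenchymal markers summed to 2400 to 2490 CPM in BT-549 and to at most 32.7 in the other DMSO libraries at 48 h. The leukocyte markers PTPRC and CD3E are not listed in any of the lines.

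In hg38 coordinates, 7 of the 9 genes lie on chromosome 6. HLA-C spans chr6:31268749-31272092 and HLA-B chr6:31353875-31357179, both on the minus strand. TAP2 (chr6:32821831-32838739, minus strand), PSMB8 (chr6:32840717-32844679, minus), TAP1 (chr6:32845209-32853704, minus) and PSMB9 (chr6:32854192-32859851, plus) form a cluster of 38.0 kb. In it the starts of TAP1 and PSMB9 face away from each other, 488 bases apart. TAPBP lies at chr6:33299694-33314078 (minus), B2M at chr15:44711517-44718145 (plus) and NLRC5 at chr16:56989557-57083520 (plus). The library kit does not keep the strand, so reads of overlapping genes cannot be told apart. The exons of PSMB8-AS1 cover 15.4% of the exon bases of TAP1, 8.7% of PSMB8 and 15.1% of PSMB9. The read-through gene AL669918.1 covers 33.4% of TAP2. For HLA-B, the pseudogene AL671883.2 on the opposite strand covers 23.5% of the exon bases. HLA-B and HLA-C also share 2.1% of their exon bases. Shared sequence is a further limit for the heavy chains: 6.7% of the 50-base windows of HLA-C and 2.5% of those of HLA-B occur in another gene as well. For TAP2 the share was 35.8%, but AL669918.1 alone held 35.8% and TAP1 0.6%, so it restates the read-through overlap. No window of B2M, PSMB8 or NLRC5 was shared.

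Untreated cells ordered the genes differently by line. On a scale of CPM per kb of exon (DMSO, 48 h, mean ± SD, n = 2), T47D held most HLA-B (240 ± 22.3), then HLA-C (133 ± 7.74), B2M (106 ± 12.2), TAPBP (41.8 ± 2.87) and TAP1 (35.3 ± 0.239). PSMB8 (13.4 ± 1.42) and PSMB9 (10.6 ± 1.45) overlapped within 1 SD, and TAP2 (7.13 ± 0.527) and NLRC5 (0.443 ± 0.0591) were the lowest. In T47D-TR, HLA-B (149 ± 16.9) and B2M (131 ± 21.1) overlapped, followed by HLA-C (91.4 ± 3.64), an overlapping pair of PSMB8 (29.6 ± 4.06) and TAPBP (26.7 ± 6.1), TAP1 (14.4 ± 0.358), an overlapping pair of PSMB9 (6.9 ± 1.93) and TAP2 (3.36 ± 2.07), and NLRC5 (0.523 ± 0.112). BT-549 placed B2M (185 ± 26.2) and HLA-C (157 ± 15) first, again overlapping. There HLA-B (22.3 ± 2.32) was the seventh in order, after TAPBP (49.1 ± 5.06), PSMB8 (35.7 ± 7.71), PSMB9 (30.8 ± 3.07) and TAP1 (26.6 ± 0.43) and ahead of TAP2 (16.1 ± 1.72) and NLRC5 (1.22 ± 0.112). The low HLA-B level of BT-549 is the clearest difference between the lines: 35.4 ± 3.68 CPM, against 381 ± 35.4 in T47D and 236 ± 26.9 in T47D-TR. These levels are descriptions with no test, and how well each line's own HLA alleles match the reference sequence was not tested. Values of T47D-TR mostly did not come out as whole reads, unlike those of T47D and BT-549. For T47D-TR, line and processing therefore cannot be told apart.

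**Figure D1:**
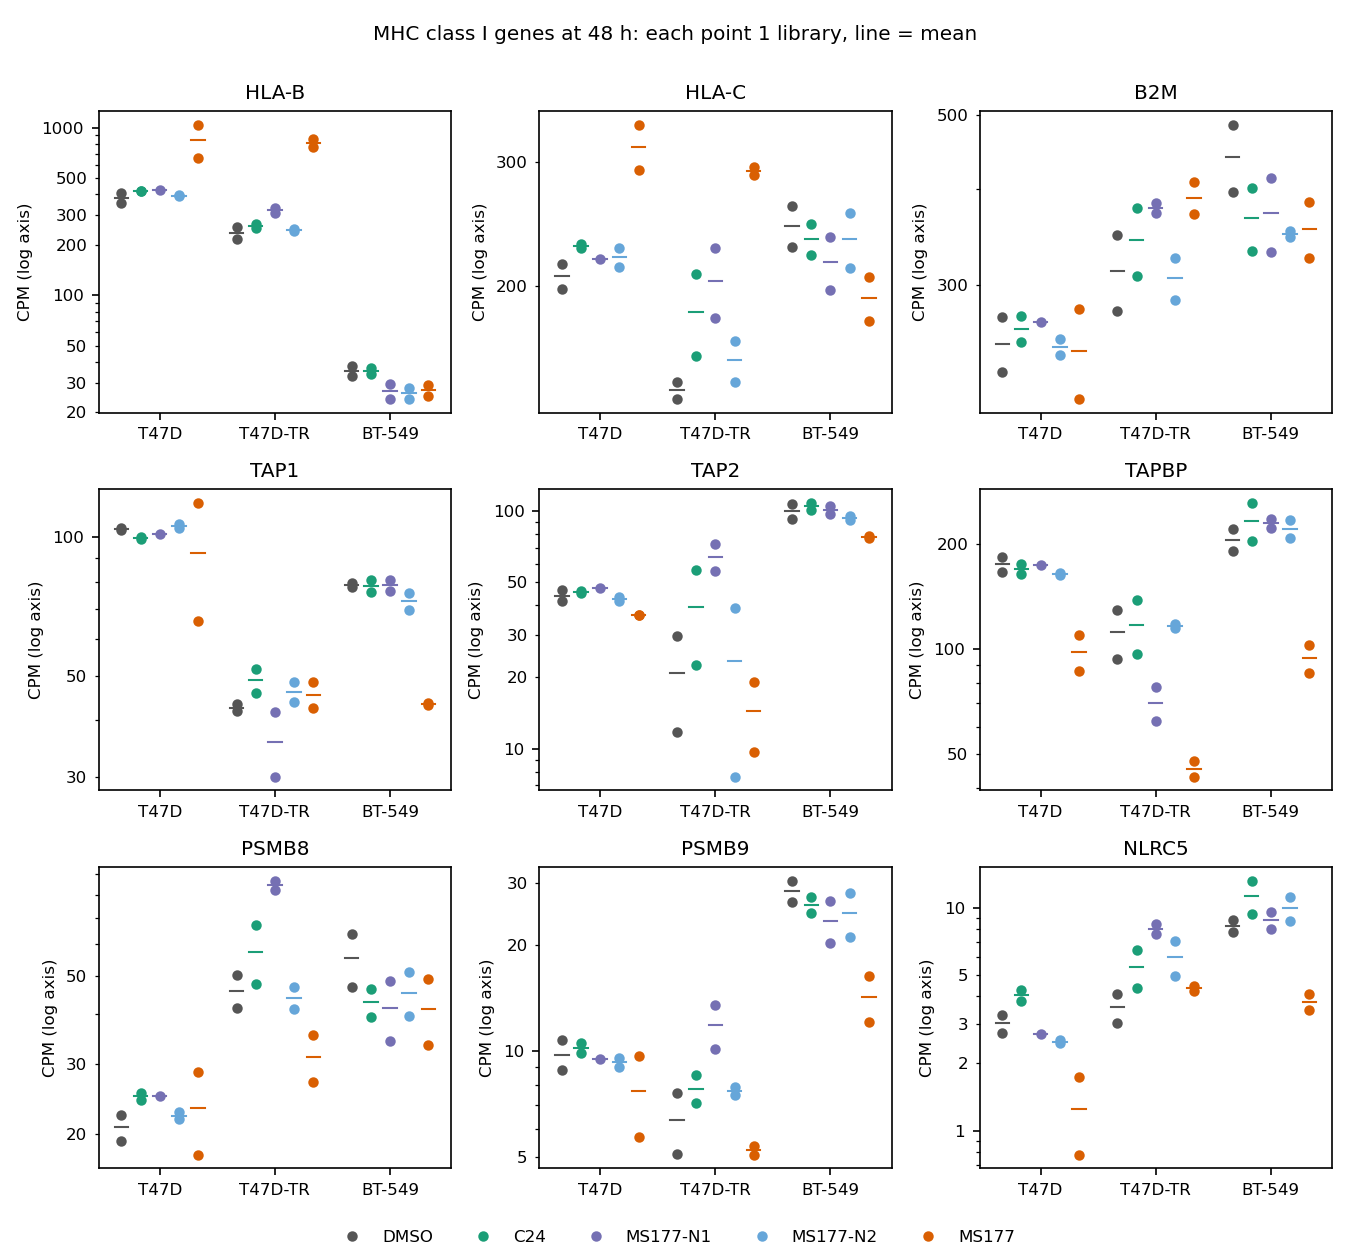
Level of each of the 9 genes in every library at 48 h, in CPM on a log axis, by cell line and compound; each point is 1 library and each short line the mean. With MS177, HLA-B and HLA-C lie above the DMSO libraries in T47D and T47D-TR but not in BT-549, while TAPBP lies below them in all 3 lines.

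Of the 9 genes, MS177 raised 2 heavy chains and lowered tapasin in T47D-TR cells. HLA-B and HLA-C passed the test as higher and TAPBP as lower, 3 of the 9 genes, in a comparison in which 54.6% of all genes tested passed, 27.6% as higher and 26.9% as lower, so the share of the 9 is below the background. HLA-B stood at 3389 and 2767 normalized counts in the DMSO libraries and at 10250 and 11630 with MS177. Both treated libraries were far above both controls, and the difference was 1.83 ± 0.14 (log2, SE; 3.55-fold, limma adjusted p = 0.000155). HLA-C went from 1939 and 1762 to 3934 and 3917 (log2 difference 1.09 ± 0.11, 2.12-fold, limma adjusted p = 0.000374). The treated pair was nearly equal and again did not overlap the controls.

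TAPBP moved the other way in the same libraries, from 1247 and 1659 normalized counts to 639.2 and 585.5 (log2 difference -1.23 ± 0.16, 2.37-fold lower, limma adjusted p = 0.00119). The remaining 6 genes did not pass. B2M, the shared light chain, was at 4625 and 3542 in DMSO and at 4951 and 5543 with MS177 (log2 difference 0.37, 95% interval 0.01 to 0.74, limma adjusted p = 0.0781). The 2 treated B2M libraries lay above the controls, by less than the threshold asks. The TAP1 difference was 0.14 (interval -0.17 to 0.45), so a doubling of TAP1 lies outside its interval. PSMB8 was at 668.4 and 528.7 in DMSO and at 359.0 and 481.7 with MS177 (log2 difference -0.51, limma adjusted p = 0.0636). PSMB9 differed by -0.21 (limma adjusted p = 0.567) and NLRC5 by 0.34 (limma adjusted p = 0.35), the latter at only 38.75 to 59.64 counts per library. TAP2 spread from 149.5 to 396.2 between the DMSO libraries alone, and its interval (-1.62 to 0.79) is wide. The median difference of the 9 genes was 0.14 against 0 for all genes. Leaving out any 1 of the 4 libraries kept the calls of HLA-B, HLA-C and TAPBP.

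The promoters of the genes that moved apart are shown for comparison with those of the divergent TAP1 and PSMB9 pair. Each run is the 250 bases before the gene start, read 5′ to 3′ along the gene (RefSeq, GRCh38.p14): HLA-B at chr6:31357180-31357429 and HLA-C at chr6:31272093-31272342, TAPBP at chr6:33314079-33314328 and TAP1 at chr6:32853705-32853954, all on the minus strand, and PSMB9 at chr6:32853942-32854191 on the plus strand. Capitals mark matches, on either strand, to an interferon-stimulated response element (ISRE, searched as GAAA, any 2 bases, GAAA), an NF-kappaB site (kB, searched as GGGA, any base, T, any 2 bases, CC) or a CCAAT box, and overlapping matches run together. No base of an interferon-gamma activated site (GAS, TTCNNNGAA) is marked because none of the 8 promoters with an entry matched it.
HLA-B: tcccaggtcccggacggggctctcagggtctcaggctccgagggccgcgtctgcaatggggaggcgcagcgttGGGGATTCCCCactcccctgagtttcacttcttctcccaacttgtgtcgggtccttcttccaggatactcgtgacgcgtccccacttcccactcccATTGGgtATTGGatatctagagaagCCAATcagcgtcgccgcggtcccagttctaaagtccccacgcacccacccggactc
HLA-C: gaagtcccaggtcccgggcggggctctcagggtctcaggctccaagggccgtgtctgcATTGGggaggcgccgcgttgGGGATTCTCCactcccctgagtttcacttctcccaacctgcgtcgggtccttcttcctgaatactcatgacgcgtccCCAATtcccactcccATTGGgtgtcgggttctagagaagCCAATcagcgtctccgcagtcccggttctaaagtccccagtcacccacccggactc
TAPBP: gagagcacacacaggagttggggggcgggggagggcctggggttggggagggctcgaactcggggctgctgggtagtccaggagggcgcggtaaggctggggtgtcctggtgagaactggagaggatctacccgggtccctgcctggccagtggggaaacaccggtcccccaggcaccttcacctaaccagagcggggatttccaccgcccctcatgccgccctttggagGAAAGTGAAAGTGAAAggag
TAP1: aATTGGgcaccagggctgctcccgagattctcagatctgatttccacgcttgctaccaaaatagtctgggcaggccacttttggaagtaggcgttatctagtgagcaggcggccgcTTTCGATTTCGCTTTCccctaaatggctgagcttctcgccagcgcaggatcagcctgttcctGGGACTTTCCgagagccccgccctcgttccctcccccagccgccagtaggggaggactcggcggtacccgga
PSMB9: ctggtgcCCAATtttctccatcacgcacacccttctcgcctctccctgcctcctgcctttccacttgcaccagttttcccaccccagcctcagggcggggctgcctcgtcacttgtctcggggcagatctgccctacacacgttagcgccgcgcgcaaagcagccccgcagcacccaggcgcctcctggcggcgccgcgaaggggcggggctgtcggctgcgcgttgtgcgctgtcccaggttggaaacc
HLA-B and HLA-C share the kB match (176 to 167 and 172 to 163 bases before the start) and a CCAAT match 56 to 52 bases before the start. Neither holds the exact ISRE letters searched. That search misses looser forms of the element, so it cannot show that these promoters lack one. TAPBP holds overlapping ISRE matches that end 5 bases before its start, and no match to the exact kB or CCAAT letters searched. The kB search misses looser forms as well. The run ggggatttcc in TAPBP is close to the kB letters but is not marked, so TAPBP is not shown to lack a kB site. TAP1 holds overlapping ISRE matches that begin 134 bases before the start, and a kB match. PSMB9 holds 1 CCAAT match, the same bases as the one in TAP1 read from the other strand. Among the 8 promoters, 4 match the ISRE (B2M, TAP1, TAP2 and TAPBP) and 4 the kB letters (HLA-B, HLA-C, B2M and TAP1), against 3.02% and 4.46% of the 35116 promoters in the table. CCAAT occurs in 5 of the 8 and in 32.0% of all, and GAS in 6.57% of all. HLA-B has 17 CpG dinucleotides in this window, HLA-C 15, TAP1 16, PSMB9 21 and TAPBP 10, against a median of 11 over all promoters. These are matches of letters and not measured binding.

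In BT-549 cells, MS177 left neither HLA-B nor HLA-C past the threshold and lowered 4 of the 9 genes. Of all genes tested, 24% passed in either direction and 12.6% passed as lower. TAPBP again fell, from 7366 and 8113 normalized counts in DMSO to 3919 and 3438 with MS177 (log2 difference -1.07 ± 0.13, 2.1-fold lower, limma adjusted p = 0.00603). TAP1 fell from 3001 and 2924 to 1650 and 1741 (-0.81 ± 0.11, 1.75-fold lower, limma adjusted p = 0.00845). In both genes the pairs were tight and far apart. PSMB9 fell from 1171 and 968.9 to 458.9 and 657.4 (-0.95 ± 0.21, limma adjusted p = 0.0314), with more spread between the treated libraries. NLRC5 fell from 298.8 and 324.4 to 155.2 and 140.4 (-1.07 ± 0.15, 2.11-fold lower, limma adjusted p = 0.0096). The pump subunit, the loading factor, an immunoproteasome subunit and the transactivator were thus all lower in these cells.

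The other BT-549 differences did not pass but had the same sign. HLA-B stood at 1465 and 1206 in DMSO and at 945.9 and 1180 with MS177 (log2 difference -0.33, interval -0.76 to 0.1, limma adjusted p = 0.213). For HLA-C the interval was -0.69 to 0.12 and for B2M -0.73 to 0.22, so neither reaches the size of the T47D-TR gain of HLA-C. TAP2 differed by -0.3 (limma adjusted p = 0.124) and PSMB8 by -0.38 (limma adjusted p = 0.356). The median over the 9 genes was -0.38, against 0.01 over all genes tested. Leaving out 1 library at a time gave 4 or 5 genes past the threshold.

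In T47D cells no gene of the 9 passed, and neither did any of the 17370 genes tested (0%), although 3163 had an unadjusted p under 0.05. The 2 MS177 libraries differed from each other. HLA-B stood at 12020 and 13890 normalized counts in DMSO and at 45200 and 22100 with MS177 (log2 difference 1.29 ± 0.46, limma adjusted p = 0.264). Both treated libraries lay above both controls, with a gap of the same order between the treated libraries themselves. HLA-C was at 6680 and 7353 in DMSO and at 14740 and 9843 with MS177 (0.78, interval -0.12 to 1.68). TAPBP was at 6205 and 5712 in DMSO and at 3786 and 3690 with MS177 (-0.67 ± 0.26, limma adjusted p = 0.279), and here the treated pair was tight. NLRC5 was at 112.0 and 93.91 in DMSO and at 33.99 and 58.3 with MS177 (-1.19, limma adjusted p = 0.263).

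The remaining T47D genes overlapped between the groups. PSMB8 was at 1245 in the MS177 library with the high HLA-B value and at 597.1 in the other, on either side of the DMSO libraries at 650.5 and 762.5. That library also held 9045 normalized counts of the constitutive proteasome gene PSMB6, against 2758 in the other MS177 library and 2792 and 3219 in DMSO, and the part of this in the class I values was not tested. A fit over all T47D libraries, which shares 1 estimate of the spread, called HLA-B higher (limma adjusted p = 0.0463) and TAPBP (limma adjusted p = 0.0237) and NLRC5 (limma adjusted p = 0.0413) lower among 3150 genes called. Without MS177 replicate 1, 5 of the 9 genes passed (HLA-B at 0.77 and TAPBP at -0.69), and without replicate 2, 7 passed (HLA-B at 1.81 and TAPBP at -0.65). In those fits the spread comes from the DMSO pair alone.

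With MS8815 in T47D-TR at 30 h, none of the 9 genes passed, in a comparison in which 5.19% of genes tested did. TAPBP came closest, at 747.4 and 851.6 normalized counts in DMSO and 300.5 and 373.0 with MS8815 (log2 difference -1.25 ± 0.23, limma adjusted p = 0.0517). Both treated libraries were well below both controls. TAPBP passed in a fit on the deposited log2 values (-1.07, limma adjusted p = 0.0493) and after quantile normalization (-1.31, limma adjusted p = 0.0425). PSMB9 was at 88.01 and 103.5 in DMSO and at 55.21 and 41.07 with MS8815 (-0.99, limma adjusted p = 0.13). HLA-B was at 2369 and 2065 in DMSO and at 6209 and 2339 with MS8815 (0.78, limma adjusted p = 0.357). The high HLA-B value came from replicate 1 alone, the library with 4.9% of listed genes at 0. In that library TAP1 was at 168.1, against 439.8 in replicate 2, and PSMB6 at 7699, against 2977 in replicate 2 and 1212 and 1009 in DMSO. The part of these differences between the libraries in the class I values was not tested. HLA-C, at 1901 and 2167 against 1487 and 1443 in DMSO, differed by 0.47 (interval -0.06 to 1). Without MS8815 replicate 1, 4 of the 9 genes passed (HLA-C higher at 0.56, and TAPBP at -1.09, PSMB8 at -0.76 and PSMB9 at -1.2 lower), and without replicate 2, 7 passed.

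**Figure D2:**
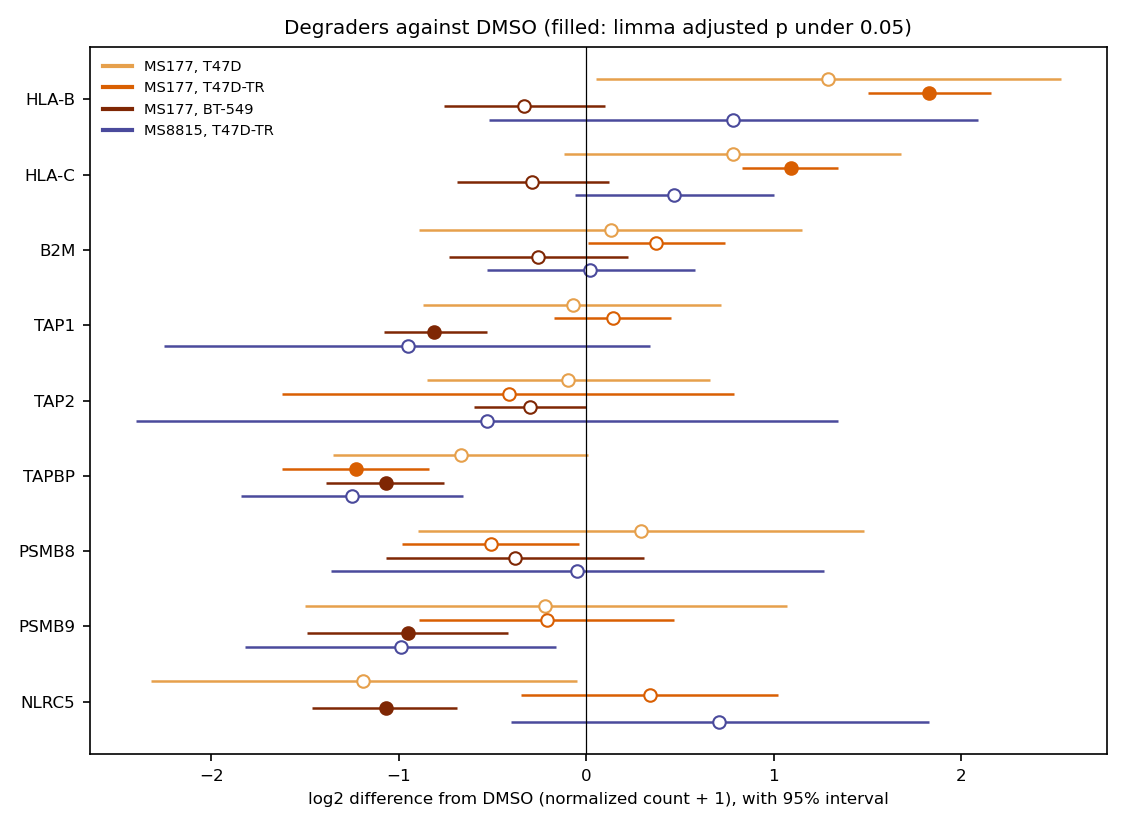
Log2 difference from DMSO of each gene with the 2 EZH2 PROTACs, on the log2(normalized count + 1) scale, with its 95% interval; filled points passed the limma test (adjusted p under 0.05) and open points did not. TAPBP lies left of 0 in all 4 comparisons, while HLA-B and HLA-C lie right of 0 in the T47D and T47D-TR comparisons and left of 0 in BT-549.

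Among the 9, TAPBP was the gene whose treated libraries lay below the DMSO libraries in 4 of 4 PROTAC comparisons. Of its differences, 2 were past the threshold (54.6% and 24% of genes passed in those comparisons). Libraries apart from DMSO, on either side, were common: 7 of the 9 genes with MS177 in T47D-TR, 7 in BT-549, 4 in T47D and 5 with MS8815. The share over all genes is not given here, so this count has no background. The differences of PSMB9 and TAP2 were negative in all 4 as well, but their libraries overlapped with DMSO in some. In the 11 comparisons of the other compounds with DMSO the TAPBP difference ranged from -0.52 to 0.18 and none passed. The TAPBP libraries lay below DMSO in 3 of the 11. Of these, MS177-N1 in T47D-TR passed on the deposited log2 values (limma adjusted p = 0.0459) and without DMSO replicate 1 (limma adjusted p = 0.0381), and EPZ-6438 passed without its replicate 1 (limma adjusted p = 0.009). The 3 MS177 comparisons are of separate lines with their own controls, and the MS8815 comparison has DMSO libraries of its own.

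The EZH2 inhibitors C24 and EPZ-6438 gave no call in the 9 genes in the fits with every library. Over 4 comparisons and 36 gene tests, 0 passed, and in these comparisons 0.165% (C24 in BT-549), 0.014% (C24 in T47D-TR), 0.574% (C24 in T47D) and 0% (EPZ-6438 in T47D-TR) of all genes did. With EPZ-6438, limma called 0 genes and 184 had an unadjusted p under 0.05. In T47D the C24 libraries were tight: HLA-B was at 15720 and 15760 normalized counts, against 13410 and 15440 in DMSO, a difference of 0.13 with an interval of -0.03 to 0.29. In T47D, NLRC5 with C24 stood at 141.4 and 160.8 against 125.0 and 104.4 in DMSO (0.4, limma adjusted p = 0.364). With C24 in T47D-TR all 9 differences were positive, from 0.1 to 0.96, but the intervals were wide (-0.49 to 2.42 for TAP2) and the smallest adjusted p was 1. Across the inhibitor comparisons 7 intervals reach above a log2 difference of 1, so a difference of that size is within those intervals. Without EPZ-6438 replicate 1, which leaves the library with 3.1% of listed genes at 0, 5 genes passed, PSMB8 highest at 1.53. PSMB8 stood at 694.3 and 2014 in the 2 EPZ-6438 libraries.

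Among the negative control compounds, MS177-N1 in T47D-TR stood out, with 6 of the 9 genes higher and none lower, against 17.3% of all genes tested past the threshold and 9.92% past it as higher. PSMB8 rose from 590.7 and 463.1 normalized counts to 1022 and 1124 (log2 difference 1.03 ± 0.17, limma adjusted p = 0.0113). NLRC5 was at 32.58 and 22.89 in DMSO and at 70.48 and 66.91 with MS177-N1 (1.3 ± 0.33, limma adjusted p = 0.028). TAP2 went from 211.2 and 79.01 to 418.3 and 566.1 (1.9 ± 0.47, limma adjusted p = 0.0487). HLA-B (0.6), HLA-C (0.65) and PSMB9 (1.04) passed as well, and TAPBP was at 950.7 and 795.3 against 1087 and 1433 in DMSO (-0.52, limma adjusted p = 0.0699).

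These 6 calls rest on few libraries. None passed in the fit over all T47D-TR libraries at 48 h (limma adjusted p from 0.0719 to 0.133), none without DMSO replicate 2 or without MS177-N1 replicate 2, and 3 without MS177-N1 replicate 1. The TAP2 call also ended with no filter on low values (limma adjusted p = 0.0577) and under quantile normalization (limma adjusted p = 0.0512). Both MS177-N1 libraries also differed from DMSO along transcript length (Spearman's rho -0.42 and -0.41 across 12880 genes, which are not independent replicates), as the 2 DMSO libraries did from each other (0.39 in size). Of the constitutive proteasome genes PSMB5, PSMB6 and PSMB7, 2 of 3 were higher in the same comparison. The part of these differences in the calls was not tested.

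The other controls gave no call in the 9 genes in the fits with every library and no replicate block. For MS177-N1, limma called 0% of genes in BT-549 (395 at an unadjusted p under 0.05) and 0.0651% in T47D, where it has 1 library. For MS177-N2 the shares were 2.12% in BT-549, 0.111% in T47D-TR and 0% in T47D (951 at an unadjusted p under 0.05). In BT-549, HLA-B stood at 842.5 and 998.2 with MS177-N2 and at 1414 and 1161 in DMSO (-0.48, limma adjusted p = 0.13), beside -0.33 with MS177. With MS8815-N limma called 0% of genes (289 at an unadjusted p under 0.05), and its libraries disagreed in most of the 9: HLA-B was at 1540 in replicate 1 and 444.9 in replicate 2, and TAP2 at 116.3 and 0. Without MS8815-N replicate 1, 8 of the 9 genes passed, 6 of them lower, and without replicate 2, 6 passed, 5 of them higher.

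**Figure D3:**
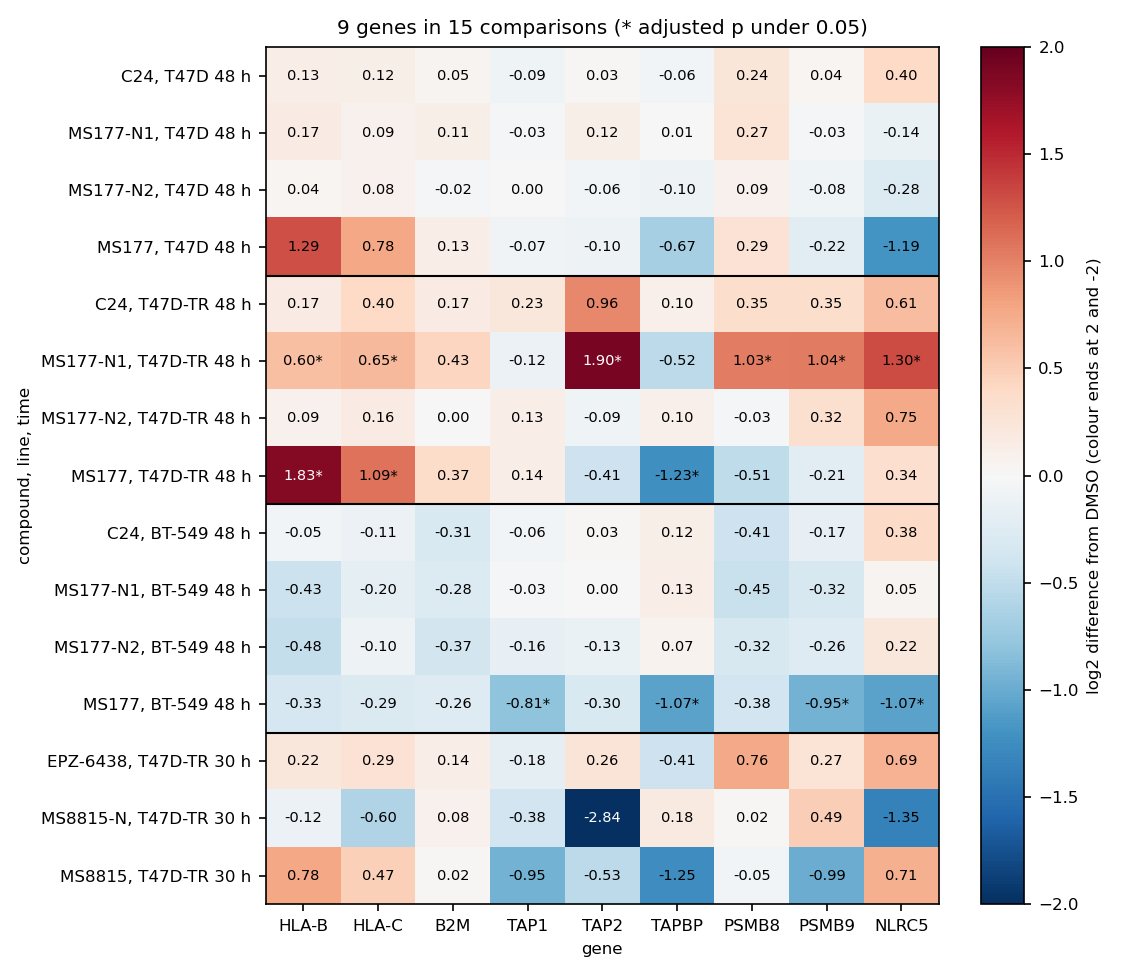
Log2 difference from DMSO of the 9 genes (columns) in the 15 comparisons (lines of the map, by cell line and time), coloured by sign and size; a star marks an adjusted p under 0.05. Of 135 tests 13 passed, and they fall in 3 comparisons: MS177 in T47D-TR, MS177 in BT-549 and MS177-N1 in T47D-TR.

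The PROTACs were then set against the other compounds at the same dose and time, in 11 pairs. Of MS177 against its control compounds and C24, 9 pairs in all, TAPBP was lower past the threshold in 8 and its libraries did not overlap in any of the 9. In these pairs 4 to 7 of the 9 genes had libraries that did not overlap, and the share over all genes is not given here. In T47D-TR the background was 50.7% of genes called against MS177-N1 (23.9% higher, 26.8% lower), 46.3% against MS177-N2 (21.8% higher, 24.5% lower) and 48.1% against C24 (22.3% higher, 25.7% lower). HLA-B was higher with MS177 than with MS177-N2 (log2 difference 1.75 ± 0.14, limma adjusted p = 1.61e-05), than with C24 (1.66 ± 0.14, limma adjusted p = 1.89e-05) and than with MS177-N1 (1.23 ± 0.14, limma adjusted p = 0.000101). HLA-C was higher than with MS177-N2 (0.93) and C24 (0.69), but the difference from MS177-N1 did not pass (0.43, interval 0.02 to 0.85). The C24 call of HLA-C ended without MS177 replicate 1 (limma adjusted p = 0.0591), MS177 replicate 2 (limma adjusted p = 0.0582) or C24 replicate 1 (limma adjusted p = 0.068), and on the deposited log2 values (limma adjusted p = 0.06). Against MS177-N1, 5 genes were lower with MS177: PSMB8 by -1.55, PSMB9 by -1.25, TAP2 by -2.32, NLRC5 by -0.97 and TAPBP by -0.71. The TAP2 and NLRC5 calls of this pair were lost when any 1 of its 4 libraries was left out. TAPBP lost it without MS177 replicate 2 (limma adjusted p = 0.0634) or MS177-N1 replicate 1 (limma adjusted p = 0.0713). PSMB8 was also lower than with C24 (-0.86, limma adjusted p = 0.0114), a call that ended without MS177 replicate 1 (limma adjusted p = 0.0887) or C24 replicate 2 (limma adjusted p = 0.0611).

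In BT-549 the background was 33.1% against MS177-N1 (17.7% lower), 37.2% against MS177-N2 (19.4% lower) and 35.7% against C24 (18.9% lower). TAP1, TAPBP and NLRC5 were lower with MS177 in all 3 pairs. TAPBP differed by -1.2 from MS177-N1 and C24 and by -1.14 from MS177-N2, and NLRC5 by -1.45 from C24 (± 0.19, limma adjusted p = 0.00055). PSMB9 passed against MS177-N2 (-0.7, limma adjusted p = 0.0373) and C24 (-0.78, limma adjusted p = 0.0245), and TAP2 against C24 (-0.33, limma adjusted p = 0.0452). Without MS177 replicate 1 neither PSMB9 call held (limma adjusted p = 0.191 and 0.132). The first was also lost on the deposited log2 values and under quantile normalization (limma adjusted p = 0.0522 in both). Without MS177-N2 replicate 2 the first was lost (limma adjusted p = 0.21), and without C24 replicate 1 (limma adjusted p = 0.0769) or replicate 2 (limma adjusted p = 0.113) the second. The TAP2 call was lost without any 1 of 6 libraries (the MS177, C24 and DMSO pairs) and in the fit on only the libraries of the 2 compounds (limma adjusted p = 0.112). Neither the HLA-B nor the HLA-C difference passed: HLA-B differed from MS177-N2 by 0.15, with an interval of -0.23 to 0.54.

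In T47D the background was 8.56% against MS177-N1, 16.7% against MS177-N2 (9.09% lower) and 19.3% against C24 (11% lower). TAPBP was lower than with MS177-N2 (-0.57 ± 0.14, limma adjusted p = 0.0394) and C24 (-0.61 ± 0.14, limma adjusted p = 0.0295), and NLRC5 lower than with C24 (-1.58 ± 0.29, limma adjusted p = 0.0175). HLA-B differed by 1.25 from MS177-N2 (limma adjusted p = 0.0532) and by 1.16 from C24 (limma adjusted p = 0.0589), just short of the threshold. None of these 3 calls passed in fits on only the 4 libraries of the pair, and each was lost without either DMSO library or either library of the compared compound. Without MS177 replicate 1, 9 of the 9 genes passed against MS177-N1, 7 against MS177-N2 and 9 against C24. Without replicate 2 the counts were 7, 8 and 7, so the T47D counts depend on single libraries.

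MS8815 gave no call against MS8815-N (0.0574% of genes) or EPZ-6438 (0.108%). TAPBP differed from MS8815-N by -1.43 ± 0.53 (interval -2.68 to -0.17, limma adjusted p = 0.336) and from EPZ-6438 by -0.84 (interval -2.1 to 0.41). The median difference of all genes from MS8815-N was 0.52, so values of that pair are relative to a shifted centre. Over the 11 pairs the 9 genes gave 28 calls, and 32 differences were past 0.05 when each gene's p was adjusted over the 11 pairs instead. The pairs of a line share their MS177 libraries, so their calls are not separate evidence.

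The MS177 response of the lines was compared directly. Relative to BT-549, the T47D-TR response was higher by 2.16 ± 0.23 for HLA-B (log2, limma adjusted p = 0.000581) and by 1.37 ± 0.19 for HLA-C (limma adjusted p = 0.00194). TAP1 (0.94 ± 0.15, limma adjusted p = 0.00345) and NLRC5 (1.41 ± 0.31, limma adjusted p = 0.0126) also differed. Both fell in BT-549, and neither passed in T47D-TR. These are 4 of 9, against 30.5% of all genes tested that differed and 14.2% that differed in this direction. The NLRC5 difference missed the threshold without BT-549 DMSO replicate 2 (limma adjusted p = 0.0513). The TAPBP responses differed by -0.16, with an interval of -0.66 to 0.34. None of the 9 responses differed past the threshold between T47D and BT-549 (1.53% of genes) or between T47D-TR and T47D (0.0289%), where the HLA-B intervals were 0.42 to 2.82 and -0.62 to 1.71. The log2 scale sets these responses against unlike starting levels, HLA-B in BT-549 being far below the other lines. In the comparisons with T47D-TR, line and processing cannot be told apart, as its values mostly did not come out as whole reads.

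Other genes of the pathway were followed in fixed lists. In T47D-TR with MS177 the most changed regulators were IRF1 and RFX5. IRF1, a transcription factor that interferon induces and that binds the ISRE, rose from 68.29 and 83.82 normalized counts to 1106 and 986.6 (log2 difference 3.77 ± 0.17, 13.8-fold, limma adjusted p = 3.18e-05). RFX5, a subunit of the RFX complex through which NLRC5 acts, fell from 786.3 and 729.3 to 168.1 and 148.3 (-2.25 ± 0.15, 4.79-fold lower, limma adjusted p = 9.92e-05). The 2 factors thus moved in opposite directions, each with tight pairs. Of the 12 class I regulators, 2 were higher and 4 lower (median -0.23 against 0 for all genes), a share near the 54.6% of all genes that passed in this comparison (27.6% higher, 26.9% lower).

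In BT-549 the same factors moved the same ways by less. IRF1 rose from 3173 and 2745 to 4147 and 4266 (0.51 ± 0.12, limma adjusted p = 0.0377). RFX5 fell from 3717 and 4185 to 2144 and 1910 (-0.96 ± 0.13, limma adjusted p = 0.00832). Of the 12 regulators, 1 was higher and 3 lower, against 24% of all genes that passed. In T47D, IRF1 was at 98.66 and 114.3 in DMSO and at 808.7 and 659.4 with MS177 (2.77 ± 0.29, limma adjusted p = 0.117), in the comparison in which no gene passed. With MS8815, IRF1 was at 46.43 and 38.31 in DMSO and at 103.4 and 193.6 (1.72 ± 0.4, limma adjusted p = 0.0768).

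**Figure D4:**
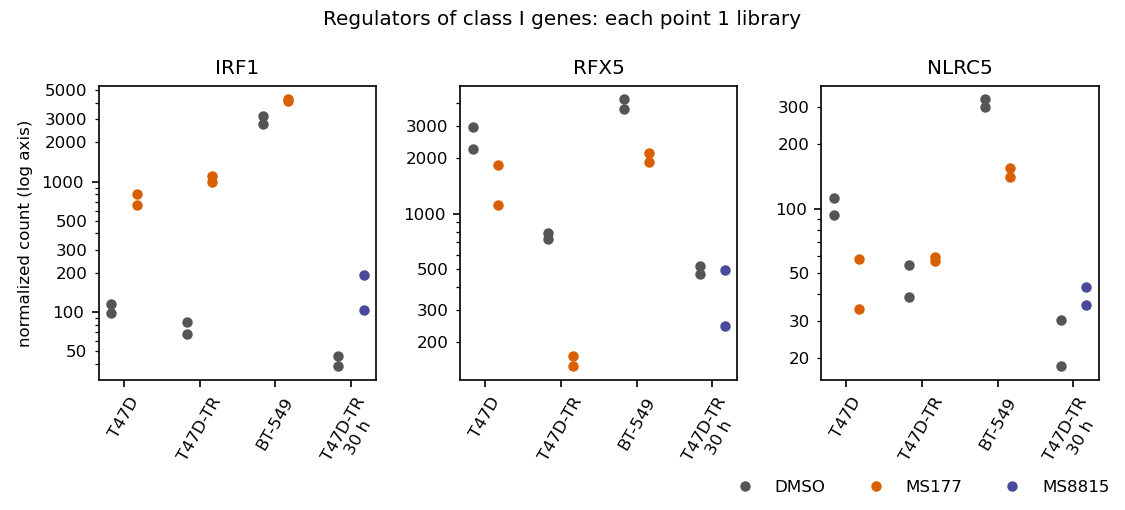
Normalized counts per library (log axes) of IRF1, RFX5 and NLRC5 in DMSO and PROTAC libraries of each table. IRF1 with a PROTAC lies above the DMSO libraries in all 4 comparisons, and RFX5 lies below them with MS177 in all 3 lines. Both genes passed the limma test with MS177 in T47D-TR and BT-549, and neither passed in T47D or with MS8815. The share of all genes with libraries apart from DMSO is not given here.

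Of the class I genes outside the 9, 2 of 12 tested were higher and 3 lower in T47D-TR with MS177 (median 0.1), a smaller share than the 54.6% of all genes. HLA-E, a non-classical heavy chain that binds an NK cell receptor, fell from 2165 and 2036 to 1677 and 1710 (-0.31, limma adjusted p = 0.0418). The peptide trimming enzyme ERAP2 (-1.23, limma adjusted p = 0.0144) and the chaperone CALR (-0.67, limma adjusted p = 0.00204) were lower. CANX, 1 of the 2 higher genes, moved the other way (0.59, limma adjusted p = 0.00812). In BT-549, where 24% of all genes passed (12.6% lower), 0 of 11 were higher and 3 lower (median -0.31): HLA-E (-0.5), ERAP2 (-1.35) and CALR (-0.7). The immunoproteasome subunit PSMB10 passed in neither line. Of the 3 constitutive proteasome counterparts, PSMB6 was higher in T47D-TR (0.61, limma adjusted p = 0.0163) and none passed in BT-549.

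Of the interferon receptor and signalling genes, 3 of 11 were higher and 4 lower in T47D-TR with MS177 (median 0.22), near the 27.6% higher and 26.9% lower of all genes. Among them IFNAR2, a subunit of the type I interferon receptor, fell from 147.2 and 183.7 to 30.17 and 61.14 (-1.91, limma adjusted p = 0.00488). In BT-549, 0 of 11 were higher and 5 lower (median -0.37), against 12.6% of all genes lower. IFNGR1, a subunit of the interferon-gamma receptor, fell from 4267 and 3726 to 2277 and 2077 there (-0.87, limma adjusted p = 0.0103). With MS177 in T47D-TR, IFNGR1 was higher instead (0.88, limma adjusted p = 0.00305). The interferon genes themselves are listed in no table except that of MS8815. In it IFNB1 stood at 0 and 0.6716 normalized counts in DMSO and at 4.718 and 6.556 with MS8815, and IFNL1 at 0.7935 and 0 in DMSO and at 11.77 and 8.197 with MS8815, levels of a few reads that fell below the filter and were not tested.

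Of the class II genes, which present peptides to CD4+ T cells, 0 of 4 tested were higher and 2 lower with MS177 in T47D-TR (26.9% of all genes were lower), among them HLA-DMA, from 172.5 and 168.3 to 31.88 and 27.14 (-2.49, limma adjusted p = 0.00033). In BT-549 neither of the class II genes tested passed and both differences were positive (median 0.82), with CD74 at 6.336 and 8.317 in DMSO and at 13.09 and 44.53 with MS177 (1.62, limma adjusted p = 0.125). Of the ligands of the NK cell receptor NKG2D, 5 of 6 were higher and 1 lower in T47D-TR (median 1.75), where 54.6% of all genes passed and 27.6% were higher, with ULBP2 rising from 31.03 and 29.66 to 140.6 and 137.0 (2.16, limma adjusted p = 0.000558). In BT-549, where 24% of all genes passed, 1 of 5 was higher and 2 lower (the difference between the lines was not tested for this list): ULBP1 rose from 48.57 and 38.47 to 258.9 and 247.8 (2.52, limma adjusted p = 0.00254), while ULBP2 fell from 152.1 and 154.9 to 58.88 and 61.96 (-1.33, limma adjusted p = 0.00822). With MS8815, ULBP2 was the 1 called gene of all these lists, at 23.36 and 22.47 in DMSO and at 175.8 and 98.12 with MS8815 (2.47, limma adjusted p = 0.0471). The lists held no called gene with MS177 in T47D.

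The 9 genes did not share 1 pattern over the 48 h libraries. As a description, the mean of their centred log2 values was correlated with each gene over the libraries of a line, which share DMSO and MS177 libraries that lie far apart. For each of the 9 genes that mean includes the gene itself, which raises its r. The values were not scaled, so the most variable genes weigh most in the mean. In T47D (9 libraries) Pearson's r with that mean ran from -0.92 for TAP1 to 0.94 for PSMB8, in T47D-TR (10 libraries) from -0.38 for TAP1 to 0.93 for TAP2, with HLA-B at 0.09, and in BT-549 (10 libraries) from 0.38 for B2M to 0.97 for PSMB9. The genes outside the 9 with the highest r were FDX1, BCRP2, EGFL7, RNF170 and BCAT2 in T47D (0.96 to 0.97, of 17341 genes ranked). They were MAPK12, ARPC1B, TIMM17B, MINOS1-NBL1 and EIF3F in T47D-TR (0.97 to 0.99, of 15027) and B3GALT4, KIF22, C11orf86, CCDC74A and TMEM121 in BT-549 (0.99, of 16345). No gene was in more than 1 of these sets.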

How the data were processed

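The members and the lists were chosen with earlier results of these data known. The authors deposited 15 tables, each holding log2 values of 1 compound and its DMSO libraries. RSEM, DESeq and hg38 are named in the submitters' processing notes, with no versions given. Per the labels' protocols, RNA was extracted with an RNeasy kit and libraries were made with a NEBNext Ultra II kit. From the values, the deposited log2 columns are a variance-stabilizing transform whose lowest value, 3.45 to 9.28, differs by table, so differences are compressed unequally. The transform was undone to give normalized counts. In T47D and BT-549, 100% of values up to 1000 reads came out as whole reads (within 0.05 read). In T47D-TR only 8.2% to 16.3% did, so depth there is unknown. Normalized counts are on the scale of their own table. Tables of a line were joined through their shared DMSO libraries for comparisons between compounds and for CPM.

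Each table was tested in R 4.3.3 by limma 3.58.1 on log2(normalized count + 1), the variances being robust and following the mean level. This scale understates changes of low genes. A gene entered a test where 2 or more libraries held 10 or more normalized counts. All 9 members passed this filter in every comparison. p-values are two-sided and adjusted by Benjamini-Hochberg over all genes tested, with a threshold of 0.05. There were 15 comparisons with DMSO, 11 between compounds (fitted on all libraries of the line and time) and 3 of the MS177 response between lines (an interaction). The scripts were tested on simulated data. The members are always named, as are EZH2, HLA-E, PSMB10, IRF1 and RFX5; some genes that the rule names are not reported here. In the PROTAC comparisons up to 3 further genes per list are named, those past the threshold with the largest change. Some others, such as CANX, are named to show the other direction. Alternatives were the deposited log2 values, a pseudocount of 5, no filter, quantile normalization, limma voom on the whole reads of T47D and BT-549, other sets of libraries, a replicate block, and leaving out each library.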

Additional observations from a re-analysis of the deposited data

Results flagged for a closer look

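Each of these 4 results was picked out by a test of the difference between cell lines itself, the interaction of line and treatment in limma. The MS177 response of HLA-B was higher in T47D-TR than in BT-549 by 2.16 ± 0.23 on the log2 scale (limma adjusted p = 0.000581), with both treated libraries above both controls in T47D-TR and both below in BT-549. The response of HLA-C was higher by 1.37 ± 0.19 (limma adjusted p = 0.00194), with the same arrangement of libraries. For TAP1 the difference was 0.94 ± 0.15 (limma adjusted p = 0.00345) and for NLRC5 1.41 ± 0.31 (limma adjusted p = 0.0126). In both genes the treated libraries lay above the controls in T47D-TR and below them in BT-549. Libraries apart from DMSO were common, in 7 of the 9 genes in each of these lines. The share over all genes is not given here, so this arrangement has no background. In this comparison 30.5% of all genes tested passed. Within T47D-TR alone, TAP1 (limma adjusted p = 0.404) and NLRC5 (limma adjusted p = 0.35) did not pass. Within BT-549 alone, HLA-B (limma adjusted p = 0.213) and HLA-C (limma adjusted p = 0.249) did not pass. The NLRC5 difference between the lines missed the threshold without BT-549 DMSO replicate 2 and under the replicate block. Line and processing cannot be told apart in these 4 results, as T47D-TR values mostly did not come out as whole reads.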

How the results depend on the processing

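A design of 2 libraries a group, and unknown depth in T47D-TR, limits the precision. The counts of the 9 genes past the threshold moved as follows, and the cause was not tested. With all libraries of a line in 1 fit, MS177 against DMSO in T47D gave 3 calls in place of 0 (3150 genes in place of 0), and MS177-N1 against DMSO in T47D-TR gave 0 in place of 6 (5 genes in place of 2431). With the deposited log2 values, MS8815 against DMSO gave 1 in place of 0, and in T47D MS177 against MS177-N2 gave 0 in place of 1 and against C24 gave 1 in place of 2. Quantile normalization gave 1 for MS8815 against DMSO, and in T47D 1 for MS177 against MS177-N1 and 2 against MS177-N2. Fits on only the libraries of the 2 compounds gave 0 for MS177 against MS177-N2 and 0 against C24 in T47D.

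Replicate numbers are not stated to pair samples. The correlation of same-numbered deviations ran from -0.35 to 0.38. With the replicate number as a block, MS177-N1 against DMSO in BT-549 gave 5 calls, all lower, in place of 0 (2739 genes in place of 0), MS177 against MS177-N2 in T47D gave 0 and MS177 against C24 in T47D gave 1. The block also left single genes short of the threshold by limma adjusted p: HLA-B (0.0554) and TAP2 (0.0726) for MS177-N1 against DMSO in T47D-TR, TAP2 (0.0505) for MS177 against MS177-N1 in T47D-TR, and in BT-549 PSMB9 (0.0567) for MS177 against MS177-N2 and TAP2 (0.0805) against C24. The NLRC5 response of T47D-TR against BT-549 had limma adjusted p = 0.0504 under the block. For MS177-N1 in T47D no library could be left out and no block fitted.

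Leaving out 1 library at a time gave these ranges of calls against DMSO: 0 to 1 for C24 in BT-549 and in T47D, 0 to 7 for MS177 in T47D, 0 to 8 for MS177-N1 in T47D-TR, 0 to 5 for EPZ-6438, 0 to 7 for MS8815 and 0 to 8 for MS8815-N. For MS177 against other compounds the ranges were 3 to 4 (C24, BT-549), 0 to 9 (C24, T47D), 2 to 4 (C24, T47D-TR), 0 to 9 (MS177-N1, T47D), 3 to 6 (MS177-N1, T47D-TR) and 0 to 8 (MS177-N2, T47D). They were 0 to 6 for MS8815 against MS8815-N, 0 to 5 for the response of T47D against BT-549 and 0 to 2 for T47D-TR against T47D. A lone library was assumed to vary like the other groups.

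Some differences short of the threshold passed with the other sign when 1 library was left out. For MS8815-N against DMSO the ranges were -0.37 to 0.54 (B2M), -1.01 to 0.78 (HLA-B), -1.65 to 0.45 (HLA-C), -1.04 to 1.09 (PSMB8), -6.28 to 0.6 (TAP2) and -0.64 to 0.99 (TAPBP). For MS8815 against DMSO PSMB8 ran from -0.76 to 0.66. In T47D, MS177 against C24 ran from -0.3 to 0.46 (B2M), -0.48 to 0.58 (PSMB8) and -0.23 to 0.25 (TAP1), against MS177-N1 from -0.36 to 0.4 (B2M), -0.51 to 0.55 (PSMB8) and -0.29 to 0.19 (TAP1), and against MS177-N2 from -0.33 to 0.73 (PSMB8) and -0.7 to 0.43 (PSMB9). Under the other settings 1495 values stayed on their side of the threshold (those short of it in either direction), 18 moved past it, 27 fell short of it and 0 passed with the other sign.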
